A study of Caenorhabditis elegans with 2 samples.

Results

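The regions described here are the autosomal distal intergenic peaks of CEH-16, a homeodomain protein that is the engrailed counterpart of the worm. They are the peaks of the pooled list that lie on the 5 autosomes, with a summit outside every protein-coding gene body and more than 2000 bp from every protein-coding gene start in the Ensembl annotation of WBcel235. The rule used position only and no measured value. It found 3693 of the 30000 pooled peaks, which is 12.3%, and 15.2% of the 24218 autosomal ones. Bases that satisfy the same rule made up 15.5% of the autosomes. The pooled list was deposited as peaks and background, before the cut for reproducibility. A peak of this list therefore need not be a site bound by CEH-16. CEH-16 was mapped by chromatin immunoprecipitation and sequencing (ChIP-seq) in whole L3 larvae of mixed sex, from strain OP82. That strain has the genotype unc-119(tm4063) III; wgIs82, and its transgene supplies CEH-16 with GFP and FLAG at the C terminus. There were 2 biological replicates of 1 group, so no condition was compared with another. Whole animals were pooled, so a signal cannot be placed in any tissue.

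Engrailed-type homeodomain proteins bind short AT-rich DNA words with a TAAT core and act as transcription factors. In the worm, CEH-16 is known for its role in the seam cells, stem-like cells of the epidermis, where it restrains cell fusion and keeps seam fate. Regulatory DNA in the compact worm genome mostly lies close to gene starts, and distant elements are fewer. Peaks far from any protein-coding start can also lie beside genes for non-coding RNAs, which the position rule ignores.

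The following 4 windows show the DNA under strong distal peaks. Those of F45D3.1/F45D3.2, cutl-22/cmd-1 and glr-4/cki-1 belong to the strongest peaks present in both replicates. That of F54F12.1/Y39E4B.6 belongs to a strong peak with TAATTA within 50 bp of the summit. Each is 300 bases of the forward strand of the ce11 (WBcel235) RefSeq genome with the summit at base 150, named by the protein-coding genes on its left and right. They are chrV:12530216-12530515, chrV:1151353-1151652, chrII:7801872-7802171 and chrIII:13064652-13064951. Capitals mark the homeodomain-type word TAATTA and its close variant that ends in G instead of A. They also mark the purine repeat GAGAGA, and each word is marked in the letters of either strand. In the F45D3.1/F45D3.2 window the marked words all lie beyond 50 bp of the summit, and the glr-4/cki-1 window has none of the words.
F45D3.1/F45D3.2: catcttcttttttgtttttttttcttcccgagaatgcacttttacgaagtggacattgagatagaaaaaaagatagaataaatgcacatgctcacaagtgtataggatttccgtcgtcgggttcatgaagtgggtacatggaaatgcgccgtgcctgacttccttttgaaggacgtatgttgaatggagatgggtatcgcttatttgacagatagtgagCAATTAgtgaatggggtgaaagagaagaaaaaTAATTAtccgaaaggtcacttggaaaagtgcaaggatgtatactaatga
cutl-22/cmd-1: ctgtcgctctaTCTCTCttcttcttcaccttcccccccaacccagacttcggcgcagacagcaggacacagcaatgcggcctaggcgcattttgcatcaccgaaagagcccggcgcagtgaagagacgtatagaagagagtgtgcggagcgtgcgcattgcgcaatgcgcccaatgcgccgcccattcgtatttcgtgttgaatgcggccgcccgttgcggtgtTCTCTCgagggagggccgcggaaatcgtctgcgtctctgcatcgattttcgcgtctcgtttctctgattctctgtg
glr-4/cki-1: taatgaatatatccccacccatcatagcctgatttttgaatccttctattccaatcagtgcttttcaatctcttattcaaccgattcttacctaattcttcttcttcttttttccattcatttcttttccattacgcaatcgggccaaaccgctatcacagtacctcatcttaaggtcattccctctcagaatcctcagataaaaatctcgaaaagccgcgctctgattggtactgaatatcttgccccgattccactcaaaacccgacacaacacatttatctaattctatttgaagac
F54F12.1/Y39E4B.6: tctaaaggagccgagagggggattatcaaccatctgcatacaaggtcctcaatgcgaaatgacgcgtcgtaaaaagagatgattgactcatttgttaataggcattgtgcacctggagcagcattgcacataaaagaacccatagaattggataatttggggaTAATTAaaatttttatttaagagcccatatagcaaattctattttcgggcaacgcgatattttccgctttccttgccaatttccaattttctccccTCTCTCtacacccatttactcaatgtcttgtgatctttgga

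Most distal peaks were weak, and a small number stood far above the rest. Each peak carries a signal deposited by the authors, on a scale that is not stated, which is used here only to describe and rank peaks within a list. The pooled signal of the 3693 distal peaks had a median of 15.1, against a lowest value in the whole pooled list of 11.5. Their quartiles were 13.1 and 18.2, 90% lay at or below 22.4, and the highest reached 68.3. No read counts are given, and the sequencing depth of a peak is unknown. The thresholded list, which the authors kept for reproducibility between replicates (irreproducible discovery rate), held 214 peaks and consists of the pooled peaks of highest signal. Of the distal peaks, 13 were in it, or 0.352% with an exact binomial 95% interval of 0.188% to 0.601%. In all, 0.713% of the pooled peaks and 0.603% of the autosomal pooled peaks were in it.

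The strongest distal peak lay between gpb-1, a G protein beta subunit, and F44E5.4, with its summit at base 11756954 of chromosome II. The peak was 153 bp past the end of F44E5.4 and within 200 bp of the non-coding RNA gene F44E5.16. Its signal was 32.4 in replicate 1, 36.5 in replicate 2 and 68.3 in the pooled list. Between pamn-1 and lim-7, a LIM homeobox gene, the signal was 25.4 in replicate 1, 40.8 in replicate 2 and 67.9 pooled. The summit at base 5707007 of chromosome I lay within 200 bp of the snoRNA gene T19B4.8. The peak 2012 bp past the end of F45D3.1 had 25.4 in replicate 1, 37.1 in replicate 2 and 66.7 pooled. The peak 4769 bp upstream of cmd-1, which encodes calmodulin, had 30.4 in replicate 1, 34.2 in replicate 2 and 64.9 pooled. It lay beside the long intergenic RNA gene linc-128, and its 300-base window had 58% GC.

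A peak 3168 bp upstream of blmp-1, which encodes a zinc-finger repressor of the epidermis and of developmental timing, had 28.6 in replicate 1, 31.2 in replicate 2 and 61.9 pooled. Another distal peak lay 2962 bp upstream of blmp-1, with 17.2 in replicate 1, 13.8 in replicate 2 and 31.2 pooled. Its interval overlapped that of the first, so the pair may not be separate sites. Both peaks lay within 200 bp of the non-coding RNA gene F25D7.8. The stronger of them was the strongest distal peak beside any gene of the seam and epidermal list or of the heterochronic list. Between the divergent genes ceh-86, a homeobox gene, and vab-19, which encodes an ankyrin-repeat protein of epidermal attachment structures, the signal was 27.5 in replicate 1, 33.9 in replicate 2 and 60.7 pooled. Between glr-4, a glutamate receptor subunit, and cki-1, a cyclin-dependent kinase inhibitor, the peak had 23.5 in replicate 1, 31.7 in replicate 2 and 55.7 pooled. It lay 7699 bp upstream of glr-4 and 9219 bp upstream of cki-1.

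The other 6 thresholded peaks had pooled signals of 45.4 to 58.1. The peak between the convergent genes top-1, DNA topoisomerase I, and sepa-1 had 15.3 in replicate 1, 41.6 in replicate 2 and 58.1 pooled. It lay within 200 bp of a tRNA gene and of the spliced leader gene sls-2.9. Past the end of nlp-40, a neuropeptide gene of the intestine, the peak had 25.9 in replicate 1, 28 in replicate 2 and 52.9 pooled. Between Y48G8AR.8 and Y48G8AR.2 the values were 20.9 in replicate 1, 27.4 in replicate 2 and 52.2 pooled. Upstream of sup-26, an RNA-binding protein gene, the peak had 14 in replicate 1, 35.1 in replicate 2 and 51.5 pooled. Replicate 2 gave the higher number in 12 of the 13 peaks, but the lists differ in scale. The exception, between irld-55 and Y37A1B.7, had 40.4 in replicate 1, 24.5 in replicate 2 and 51.1 pooled, and it had 3 annotated non-coding RNA genes within 200 bp. The last, between the synaptotagmin gene snt-1 and egl-27, had 24.1 in replicate 1, 26.1 in replicate 2 and 45.4 pooled, at 10382 bp from the nearest start.

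**Figure D1:**
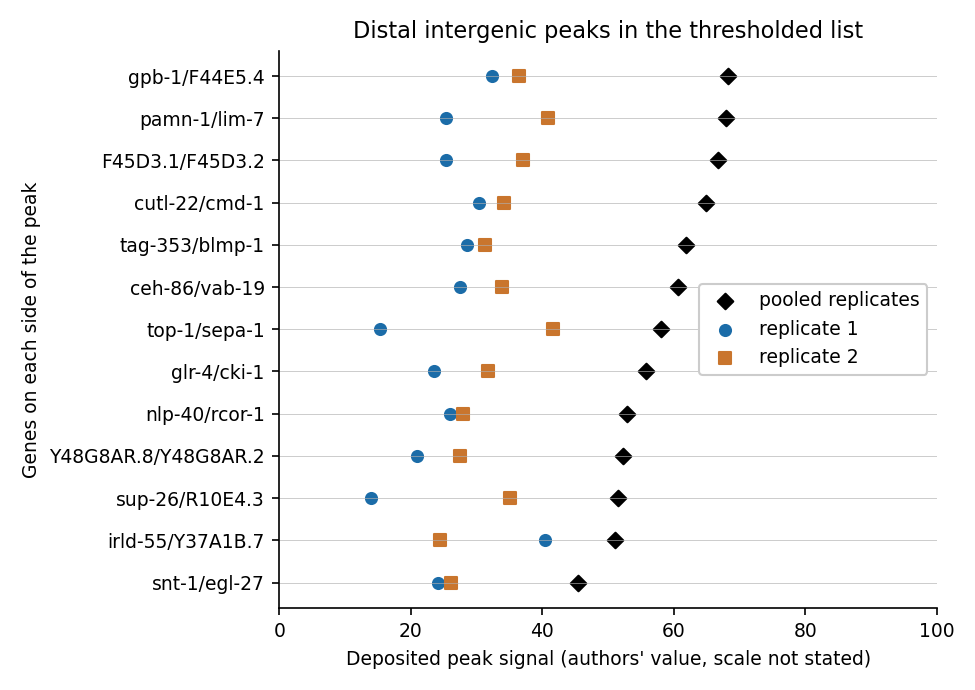
Deposited peak signal (x axis, the authors' value) of the 13 distal intergenic peaks in the thresholded list, each named by its flanking protein-coding genes (y axis). Blue circles are replicate 1, orange squares replicate 2 and black diamonds the pooled replicates; only the irld-55/Y37A1B.7 peak has a higher value in replicate 1 than in replicate 2.

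All 13 thresholded distal peaks had a summit within 200 bp in both replicate lists, and 12 of them ranked in the top 1000 of both. The thresholded list was chosen for reproducibility, and all 87 of its proximal intergenic peaks were also matched in both. The exception was the sup-26/R10E4.3 peak, at rank 1053 in replicate 1 and rank 108 in replicate 2. Directly below the thresholded list came a peak upstream of T08H10.3, with 11.1 in replicate 1, 33.1 in replicate 2 and 43.5 pooled. The next lay 2542 bp upstream of the nuclear hormone receptor gene nhr-88, with 18.1 in replicate 1, 23.9 in replicate 2 and 42.8 pooled. Its window had 60% GC, above that of every thresholded distal peak. Downstream of hlh-14, a proneural transcription factor gene, a peak had 9.58 in replicate 1, 22.3 in replicate 2 and 41 pooled. Of the 106 distal peaks in the pooled top 1000, 13 had no match in the list of replicate 1 and 3 had none in that of replicate 2.

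Across all distal peaks, replicate support was low and followed the rank. Of the 3693 peaks, 681 had a summit within 200 bp in both replicate lists, or 18.4% with an exact 95% interval of 17.2% to 19.7%. This share was near the 19.4% of all pooled peaks and the 19.5% of autosomal pooled peaks. Replicate 1, whose list is the shorter with 19150 peaks, matched 36% of the distal peaks. Replicate 2, with 30000 peaks, matched 67.8%. There were 648 distal peaks with a match in replicate 1 only, 1824 in replicate 2 only and 540 in neither.

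By rank among the pooled peaks, both replicates matched 77 of 93 distal peaks (82.8%) at ranks 215 to 1000, against 231 of 264 proximal intergenic peaks (87.5%). Proximal intergenic peaks are the autosomal ones outside gene bodies and within 2000 bp of a protein-coding start. At ranks 1001 to 5000 the shares were 52.5% of 476 distal peaks and 59.2% of 963 proximal ones. At ranks 5001 to 10000 they were 29.3% of 635 distal and 28.4% of 1006 proximal peaks. At ranks 10001 to 30000, where 2476 of the distal peaks lay, they were 6.26% of distal and 6.87% of 3813 proximal peaks. Within single rank ranges the difference was not tested. In the stronger 50% of the autosomal pooled peaks together, the odds ratio of distal against proximal peaks was 0.745 (adjusted p = 6.2e-06, Fisher's exact test). Those peaks were not matched by rank, so this ratio cannot be told apart from the difference in signal between distal and proximal peaks.

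**Figure D2:**
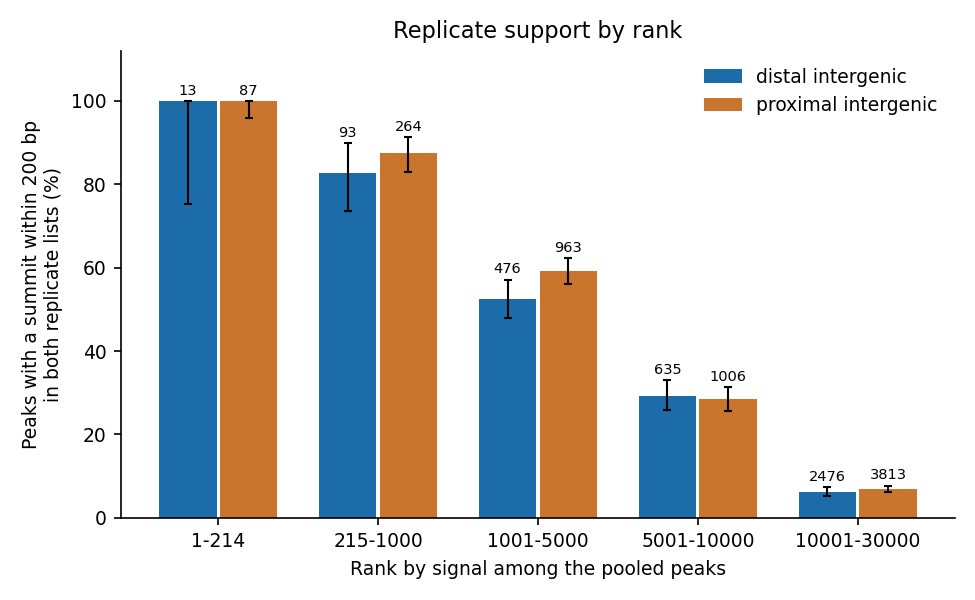
Share of peaks with a summit within 200 bp in both replicate lists (y axis, %), by rank among the pooled peaks (x axis), for distal intergenic peaks (blue, left) and proximal intergenic peaks (orange, right). Lines are exact binomial 95% intervals over peaks and numbers above the bars count peaks; the share falls to 6.26% of distal and 6.87% of proximal peaks at the lowest ranks.

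The comparison with other positions asked whether distal peaks were as strong and as reproducible. Fisher's exact test, 2-sided, was used with Benjamini-Hochberg adjustment over 9 comparisons. It compares peaks of 1 list, which share their libraries, and does not measure variation between animals. Distal peaks were in the thresholded list less often than proximal ones, with 13 of 3693 (0.352%) against 87 of 6133 (1.42%), an odds ratio of 0.245 (adjusted p = 2.7e-07, Fisher's exact test). Both replicates matched 18.4% of distal and 23.4% of proximal peaks, an odds ratio of 0.74 (adjusted p = 4.95e-08, Fisher's exact test). Here too the peaks were not matched by rank, so this ratio cannot be told apart from the difference in signal. Signals above the autosomal median of 15.1 were found for 50.2% of distal and 53.8% of proximal peaks (odds ratio 0.867, adjusted p = 0.00188, Fisher's exact test). The medians were close, at 15.1 for distal and 15.5 for proximal peaks, while the 99th percentiles were 37 for distal and 49.6 for proximal peaks.

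The same directions held in each replicate's own list. When the 214 strongest peaks of a list stood in for the thresholded one, replicate 1 held 0.819% of its 2197 distal peaks there against 1.99% of its proximal ones (odds ratio 0.408, adjusted p = 0.00144, Fisher's exact test). For replicate 2, 0.46% of its 3699 distal peaks were there against 1.26% of its proximal ones (odds ratio 0.362, adjusted p = 0.000253, Fisher's exact test). Of the peaks of replicate 1, replicate 2 matched 28.9% of distal and 35.9% of proximal ones. Of the peaks of replicate 2, replicate 1 matched 17.5% of distal and 23.2% of proximal ones. Both of these matchings compare the same pair of lists, so they are not separate tests.

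No difference from autosomal peaks inside gene bodies passed the threshold. Of distal peaks 0.352% and of 14392 gene body peaks 0.32% were thresholded (odds ratio 1.1, adjusted p = 0.747, Fisher's exact test), and both replicates matched 18.4% of distal against 18% of gene body peaks (adjusted p = 0.636, Fisher's exact test). Against the 1252 distal intergenic peaks of the X chromosome, the autosomal share in the thresholded list was 0.352% against 0.879%, an odds ratio of 0.399 that did not pass after adjustment (adjusted p = 0.0704, Fisher's exact test). The unadjusted p was 0.0313. The strongest distal peak of the X reached 148.3, against 68.3 on the autosomes.

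Distal peaks were spread over all 5 autosomes. Chromosome IV had 996, V 847, III 634, II 630 and I 586. Relative to the length that satisfies the position rule, which is 12.8 Mb over the autosomes, there were 287.8 distal peaks per Mb, close to the 293.4 pooled peaks per Mb of all autosomal sequence. The density was highest on III, at 328.2 per Mb, and lowest on V, at 267.0. All pooled peaks had the same extremes among the autosomes, at 312.9 per Mb on III and 281.0 on V. Of the 13 thresholded peaks, chromosome I had 5, II had 4, V had 2, and III and IV had 1 each. With each chromosome cut into 3 stretches of equal length, the middle stretch held 343.4 distal peaks per eligible Mb, against 265.1 in the outer ones. On III they were close, at 330.6 per Mb in the middle and 327.0 outside, and on the other 4 autosomes the middle was denser. No density by stretch was computed for all pooled peaks.

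The nearest protein-coding start was a median of 3625 bp away, with quartiles of 2691 and 5342 bp and a largest distance of 36813 bp. Density was 301.1 peaks per eligible Mb at 2000 to 3000 bp and 306.2 at 3000 to 5000 bp. It was lower farther out, at 266.6 per Mb from 5000 to 10000 bp and 203.4 beyond 10000 bp. The thresholded distal peaks lay a median of 4769 bp from the nearest start, and 2 of them lay beyond 10000 bp. The median signal was between 14.8 and 15.5 in all 4 distance ranges. Near the limit of the rule, the peaks just outside 2000 bp lay 2001 bp from str-161 (signal 13.2) and 2002 bp from pqn-76 (15.7). Those just within it lay 2000 bp from cyp-14A5 (23.6) and 1999 bp from T19E7.6 (24).

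**Figure D3:**
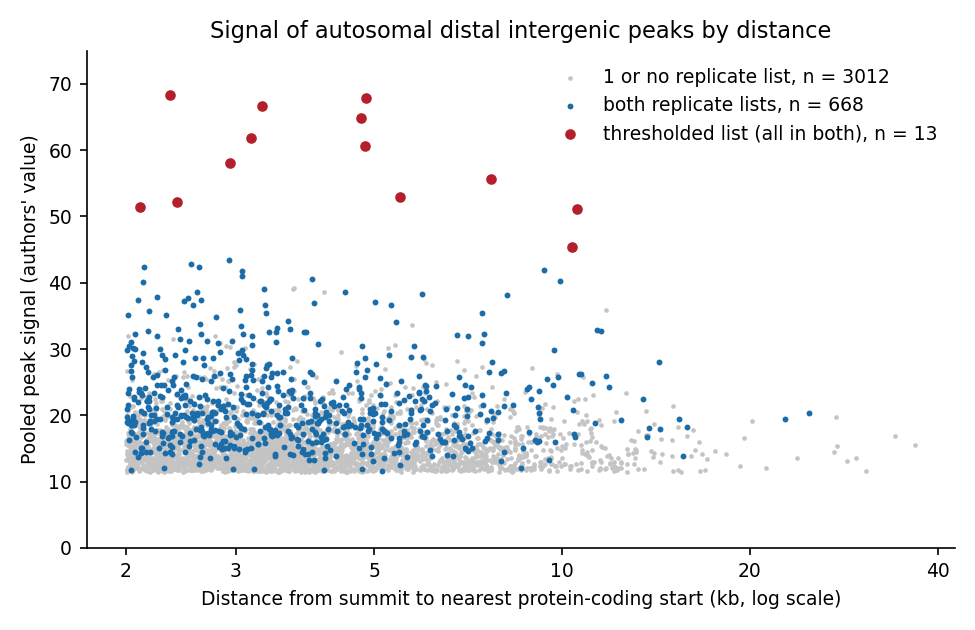
Pooled signal (y axis, the authors' value) of each autosomal distal intergenic peak against the distance from its summit to the nearest protein-coding start (x axis, kb, log scale). Grey points match 1 or no replicate list, blue points match both, and red points are the 13 thresholded peaks, which lie at all distances up to 10560 bp.

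Neighbouring genes of the same orientation surrounded 2102 distal peaks, or 56.9%, while such gaps made up 53.2% of the eligible bases. Divergent pairs, with both starts facing the peak, surrounded 1078 peaks (29.2%, against 27.9% of bases). Convergent pairs, with both ends facing it, surrounded 512 peaks (13.9%, against 18.8% of bases). The density was thus 212.6 per eligible Mb between convergent genes, 308.1 between tandem genes and 301.4 between divergent genes. Of the 13 thresholded peaks, 3 lay between convergent, 8 between tandem and 2 between divergent genes. Gene ends were close to some of them: 422 distal summits (11.4%) lay within 500 bp of the 3′ end of a flanking gene, against 8.97% of eligible bases. These shares were not tested.

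The peaks fell into 1713 of the 3900 gaps between genes that have eligible bases. In 868 gaps there was 1 distal peak, in 685 there were 2 to 4, and in 160 there were 5 or more, which together held 1030 peaks. Gaps with a peak had a median of 3969 eligible bp and gaps without one had 847. The gap with the most spanned 65018 bp of chromosome IV on the upstream side of hlh-32, a basic helix-loop-helix gene, and held 19 peaks with signals of 11.6 to 24.3. This is 311.4 per eligible Mb, near the 287.8 of all autosomes. Only 1 of these matched both replicates. The gap between snt-1 and egl-27 held 14 peaks, 6 of which matched both replicates, and its strongest was the thresholded peak at 45.4. Another peak in that gap, 7440 bp upstream of egl-27, had 16.7 in replicate 1, 22.5 in replicate 2 and 35.4 pooled. Between die-1 and lact-2, 11 peaks reached no more than 18.2 and none matched both replicates.

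Genes of each list were counted among those that flank a gap with eligible bases. Over all protein-coding genes, 3163 of 6536 such genes (48.4%) flanked a distal peak. The part of gap length in the list counts was not tested. The median eligible length was 2176 bp over all these genes, 15428 bp for Hox genes and cofactors, 420 bp for germline genes and 1620 bp for chemoreceptors. It was 2147 bp for the seam and epidermal regulators, 1709 bp for nuclear hormone receptors and 1579 bp for cuticle collagens, whose shares were 58.8%, 51.6% and 48.7%. Of the seam and epidermal regulators 10 of 17 flanked a distal peak, and of the cell fusion and apical junction genes 8 of 9. Of the Wnt pathway genes 8 of 15 did, of the Hox genes and cofactors 6 of 7, and of the heterochronic genes 5 of 8. Outside the epidermis, 18 of 22 synapse and neuronal genes, 42 of 58 neuropeptide and insulin-like genes and 23 of 32 acr and lgc receptor genes flanked one. The median eligible length was 4031 bp for the synapse list, 3207 bp for the neuropeptide list and 3492 bp for the receptor list. It was 3473 bp for the cell fusion list, 4632 bp for the heterochronic list and 2939 bp for the Wnt pathway list. Shares below that of all genes were found for 197 of 547 chemoreceptors, 52 of 151 F-box, MATH and BTB genes, 24 of 78 C-type lectins and 1 of 9 germline genes. They were also found for 11 of 31 cytochrome P450, 5 of 21 UDP-glucuronosyltransferase, 6 of 18 twk potassium channel and 0 of 2 histone genes. Closer to all genes were 64 of 124 nuclear hormone receptor genes and 19 of 39 cuticle collagens. Homeobox genes named ceh, with 14 of 24 (58.3%), and hedgehog-related and patched-related genes, with 17 of 29 (58.6%), were near the seam list. The ceh and hedgehog-related lists had median eligible lengths of 4492 bp and 3948 bp. Among the other lists, 7 of 11 body-wall muscle, 4 of 8 intestine and 6 of 10 ribosomal protein genes flanked one. A thresholded distal peak flanked 26 genes in all, with blmp-1, ceh-86, nlp-40 and snt-1 the only ones on the lists.

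Beside the other genes of the epidermal, Wnt pathway and Hox lists, the strongest distal peaks lay below the thresholded list. Beside lin-22, a Hairy-related gene of the seam lineage, a peak 4836 bp upstream had 6.8 in replicate 1, 9.11 in replicate 2 and 35.1 pooled. The nearest start was that of vrp-1, at 2315 bp, the end of vrp-1 lay 462 bp away, and the non-coding RNA gene Y54G2A.67 lay within 200 bp. Its replicate ranks, 14987 and 23596, were far below its pooled rank of 469. Beside pop-1, which encodes the TCF factor of Wnt signalling, a peak 11880 bp upstream had 9.13 in replicate 1, 22.5 in replicate 2 and 33 pooled. It was closer to the start of ccb-2, at 3668 bp. The peak 3662 bp upstream of wrm-1, a beta-catenin gene, had 17.5 in replicate 1 and 27.3 pooled, and no match in replicate 2. Past egl-5, a posterior Hox gene, a peak had 20.1 in replicate 2 and 25.5 pooled, and no match in replicate 1. Near nob-1, also a posterior Hox gene, the values were 11.6 in replicate 1, 10.8 in replicate 2 and 24.6 pooled.

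Of the genes looked up in every case, ceh-16 itself flanked no distal peak, though only 272 bp beside it satisfied the rule. The fusogen gene eff-1 flanked 2 distal peaks, the stronger at 17.5. The GATA factor gene egl-18 flanked 4, up to 19.3, with 1 matching both replicates, and its neighbour elt-6 flanked 1 at 14.9. The transformation marker gene unc-119, mutant in this strain, flanked 1 at 11.9, near the lowest value of the list.

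Non-coding genes lay beside part of the distal peaks, and the kind of gene differed with the signal. Within 200 bp of the summit, 639 distal peaks (17.3%) had an annotated pseudogene or non-coding RNA gene other than piRNA genes, against 11.8% of proximal peaks (odds ratio 1.56, adjusted p = 1.29e-13, Fisher's exact test over 6 kinds). Of the eligible bases 20.4% lay that close. Pseudogenes made most of the difference, with 357 distal peaks (9.67%) against 4.71% of proximal peaks (odds ratio 2.16, adjusted p = 2.62e-20, Fisher's exact test), but 15% of eligible bases. miRNA genes lay beside 12 distal and 4 proximal peaks (odds ratio 5, adjusted p = 0.00633, Fisher's exact test), that is 0.325% of distal peaks against 0.21% of eligible bases. With summits inside the miRNA gene only, at 0 bp, the odds ratio was 3.32 and did not pass (adjusted p = 0.673, Fisher's exact test). tRNA genes lay beside 29 distal peaks (0.785%) and 0.734% of proximal peaks, which did not differ past the threshold (adjusted p = 0.81, Fisher's exact test), and beside 0.197% of eligible bases. No share of bases was computed for proximal positions. The comparisons with proximal peaks therefore cannot be told apart from where such genes are annotated.

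Within the distal peaks, the strongest 10% (370 peaks with signals of 22.4 or more) were set against the other 3323. tRNA genes lay beside 10 of the 370 against 19 of the others (odds ratio 4.83, adjusted p = 0.000631, Fisher's exact test), and miRNA genes beside 6 of the 370 against 6 of the others (odds ratio 9.11, adjusted p = 0.000797, Fisher's exact test). Neighbouring peaks beside the same gene, such as those beside mir-238, were counted separately, and the tests take no account of that. snRNA, snoRNA or rRNA genes lay beside 6 of the 370 against 10 (odds ratio 5.46, adjusted p = 0.0039, Fisher's exact test). The other non-coding RNA genes lay beside 14.9% of the strongest against 5.99% of the rest (odds ratio 2.74, adjusted p = 7.7e-08, Fisher's exact test). Pseudogenes went the other way, at 3.78% of the strongest against 10.3% of the rest (odds ratio 0.342, adjusted p = 3.31e-05, Fisher's exact test). All 5 directions were the same in each replicate's own list, but in that of replicate 2 the miRNA odds ratio was 3.39 and the pseudogene odds ratio 0.677, each with an adjusted p of 0.0893 by Fisher's exact test. For all kinds together the difference, 21.1% against 16.9%, did not pass (adjusted p = 0.0501, Fisher's exact test). Of the 13 thresholded distal peaks, 6 (46.2%) had a gene of any of these kinds within 200 bp.

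The peaks beside miRNA genes, singled out after their values were seen, included 3 in 1 gap of chromosome III between plg-1 and K01F9.2. Beside mir-238 a peak had 14 in replicate 1, 23.5 in replicate 2 and 40.3 pooled. A neighbouring peak of mir-238 had 12.7 in replicate 1, 16.2 in replicate 2 and 29.8 pooled. The peak beside mir-80 had 33 in replicate 2 and 35.9 pooled, with no match in replicate 1. Beside mir-48, a let-7 family member of the heterochronic pathway, the peak was weak, with 6.64 in replicate 1, 9.21 in replicate 2 and 15.6 pooled. piRNA genes, which crowd parts of chromosome IV, lay within 200 bp of 382 distal peaks. On that chromosome they were beside 37.3% of the distal peaks and 32.4% of the eligible bases.

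**Figure D4:**
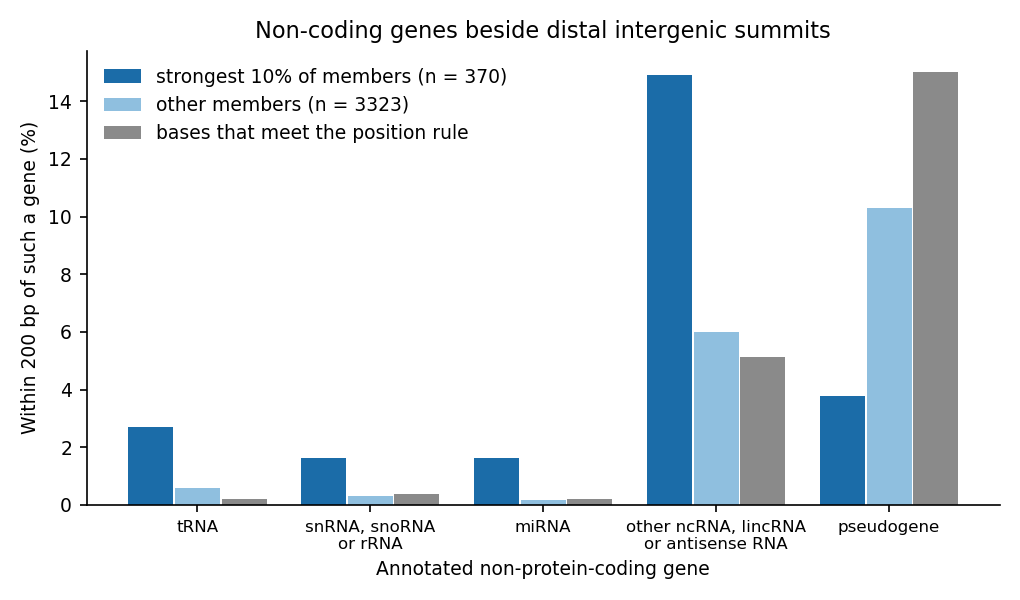
Share within 200 bp of each kind of annotated non-coding gene or pseudogene (y axis, %), for the strongest 10% of distal intergenic peaks (dark blue), the other distal peaks (light blue) and the eligible bases (grey). Other non-coding RNA genes reach 14.9% of the strongest peaks, while pseudogenes lie beside 3.78% of them, 10.3% of the rest and 15% of eligible bases.

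Base composition moved with rank. In the 300 bases centred on the summit, GC content was 43.2% ± 8.27 (SD, n = 13 peaks) in the thresholded distal peaks and 37.9% ± 7.09 (n = 93) at ranks 215 to 1000. It was 35.9% ± 5.76 (n = 476) at ranks 1001 to 5000 and 33.6% ± 5.42 (n = 2476) at ranks 10001 to 30000, against 34.5% for all eligible bases. In windows 500 bp to each side it was 37.3% for the thresholded peaks and 34% for the lowest ranks. The strongest 10% had 37.2% ± 6.4 against 33.8% ± 5.48 for the rest. In replicate 1's own list these were 38.4% ± 6.79 (n = 220) against 35% ± 5.79 (n = 1977), and in replicate 2's 35.9% ± 6.12 (n = 370) against 33.5% ± 5.4 (n = 3329). The soft-masked share of the window was 23.5% in the thresholded peaks and 39% in the lowest ranks, against 42.2% of eligible bases. The difference between the strongest 10% and the rest was smaller than 1 SD within each, in all 3 lists. Only 30 distal peaks (0.812%) had a near-identical copy elsewhere in the genome, and none of these was thresholded.

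**Figure D5:**
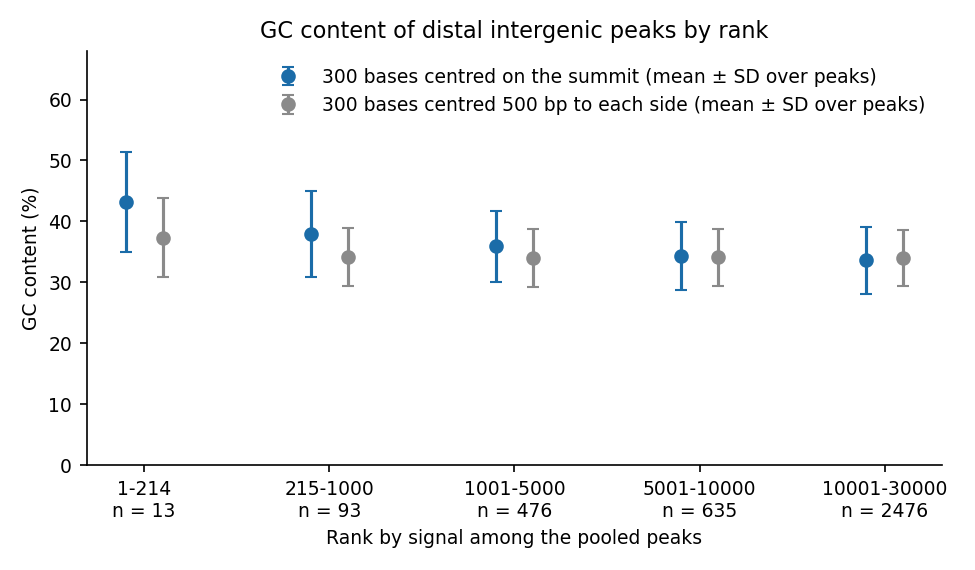
Mean GC content (y axis, %) of distal intergenic peaks by rank among the pooled peaks (x axis), in the 300 bases centred on the summit (blue) and in windows centred 500 bp to each side (grey). Bars are SD over peaks; the summit mean falls to 33.6% at the lowest ranks, while the flanks lie between 34% and 37.3%.

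Words of the homeodomain type were no more frequent at the summits than beside them. TAATTA, on either strand within 50 bp of the summit, occurred in 186 distal peaks (5.04%), against 5.47% of left-hand windows 500 bp away and 5.09% of right-hand ones (odds ratios 0.919 and 0.989, adjusted p = 0.958 for each, exact McNemar test over 12 comparisons). It occurred in 5.11% of all autosomal pooled peaks. TAATTG occurred in 8.88% of distal and 9.03% of all autosomal pooled peaks, and the core TAAT, which both longer words contain, in 66.6% of distal and 66.1% of all autosomal ones. GAGAGA, taken as a control word, occurred in 297 distal peaks (8.04%), against 6.12% of left windows (adjusted p = 0.00998) and 5.85% of right windows (adjusted p = 0.00308), exact McNemar test. It occurred in 6.73% of all autosomal pooled peaks. Over all 2080 words of 6 bases, 0 (0%) were called more frequent and 0 (0%) less frequent than in both flanks by the exact McNemar test with adjustment over all words. At an unadjusted p under 0.05 against each flank, 29 were more frequent and 15 less, and no other test was run. Over that larger family GAGAGA had an adjusted p of 0.415 on the left and 0.364 on the right.

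The strongest 10% of the distal peaks differed in words from the rest. Of the 2080 words, 27 (1.3%) were more frequent and 15 (0.721%) less frequent by Fisher's exact test with adjustment over all words. GAGAGA led, in 63 of 370 strong peaks (17%) against 234 of 3323 others (7.04%), an odds ratio of 2.71 (adjusted p = 3.92e-06, Fisher's exact test). AGAGAG, which overlaps it, followed with 14.3% against 5.54%. CGTCTC was in 8.38% of strong peaks against 2.47% (odds ratio 3.61, adjusted p = 5.61e-05, Fisher's exact test). Among the less frequent words, AAAAAT was in 42.7% of strong peaks against 56.5% of the others (odds ratio 0.573, adjusted p = 0.0002, Fisher's exact test). These words differ in GC content in the direction in which the peaks do, and the part of GC content in the word counts was not tested. In replicate 1's own list GAGAGA was in 19.1% of the strongest 10% against 8.55% of the others (odds ratio 2.52, adjusted p = 0.00348, Fisher's exact test). In replicate 2's it was in 13.5% against 6.19% (odds ratio 2.37, adjusted p = 0.00457, Fisher's exact test). The other named words that rose did not pass in replicate 1's own list, with odds ratios of 1.95 for AGAGAG (adjusted p = 0.14, Fisher's exact test) and 1.94 for CGTCTC (adjusted p = 0.487, Fisher's exact test). In replicate 2's they passed, with 2.37 for AGAGAG (adjusted p = 0.0123, Fisher's exact test) and 2.85 for CGTCTC (adjusted p = 0.0133, Fisher's exact test). A matching word is a description of the letters under a peak, not a binding site. Of the 13 thresholded peaks, 4 had GAGAGA within 50 bp of the summit, among them the peaks upstream of blmp-1 and past nlp-40. TAATTA lay within 50 bp of the summit in 1 of the 13 (7.69%), the peak between ceh-86 and vab-19.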

How the data were processed

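CEH-16 ChIP-seq of 2 biological replicates was read from 4 peak lists on ce11: 1 per replicate and 1 of pooled replicates, each relaxed input for the irreproducible discovery rate, and the thresholded list. The signal per peak is the authors' deposited value against a control, per the text deposited with the samples. The deposited score beside it was below 0 for 29528 pooled peaks and was not read as a probability. The aligner and caller are not given in the sources used here, and read depth is unknown. The control, the signal tracks and the ce10 lists were not analysed here.

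Summits were classified with protein-coding genes of Ensembl release 115 (WBcel235). Peaks matched between lists where summits lay within 200 bp. The nearest summit gave the replicate's signal and rank, so a replicate peak can match several pooled peaks. Eligible bases are autosomal bases that satisfy the position rule. Shares were compared with 2-sided Fisher's exact tests, and words at summits and flanks with exact McNemar tests, each with Benjamini-Hochberg adjustment at 0.05. Intervals are exact Clopper-Pearson at 95% and cover counting of peaks only. Copies are BLAST matches (at least 90% identity over 80% of 300 bases). The position rule, the search for flanking genes, summit matching, Fisher's exact test and the word scans were tested on simulated data. The software was scipy 1.17.1, pandas 2.3.3 and numpy 2.4.6 under Python 3.11.15, with BLAST 2.17.0 for copies.

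Regions named are the thresholded members filled by signal to 20, the strongest beside a gene of each list (up to 2), those nearest the 2000 bp limit, and the gap with most members, with 5 genes looked up always. Of these, some are given only as ranges or counts, and the sequence of 1 strong window is not reported here. Members and lists were chosen with earlier results of these data known. Alternatives covered distances, gene sets, matching, windows and each replicate alone. The stand-in for the thresholded list in each replicate's own list, the scan of all words, the comparison of the strongest 10% and the alternatives of both were added after seeing the data.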

Additional observations from a re-analysis of the deposited data

How the results depend on the processing

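The lower thresholded share and replicate support of distal against proximal peaks kept their direction under all alternatives run. With the stand-in for the thresholded list, each replicate list alone kept the call on the thresholded share. The call on replicate support also held from either list. There each list was matched to the other, so these are not separate tests and no replicate was left out. With starts within 5000 bp, which leaves 1050 peaks, the thresholded odds ratio was 0.346 and no longer passed (adjusted p = 0.0968, Fisher's exact test). Starts within 1000 bp gave 5604 peaks, and 2 differences then passed: the thresholded share against the X (odds ratio 0.361, adjusted p = 0.00488, Fisher's exact test) and signals above the median against gene bodies (odds ratio 1.08, adjusted p = 0.0184, Fisher's exact test). Genes of all biotypes except piRNA gave 2095 peaks. Directions that turned round never passed the threshold on either side. The odds ratio of replicate support against gene bodies was 0.96 with 5000 bp and 0.979 with summits within 50 bp. It was 0.993 in the stronger 50% of peaks and 0.997 to 1.1 with each replicate's list matched to the other. Against the X it was 1.02 with 5000 bp and 1.11 with all biotypes, and signals above the median gave 1.01 to 1.02 with a replicate left out. The thresholded odds ratio against gene bodies was 0.699 with all biotypes. The cause was not tested.

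The share matched by both replicates was 7.04% within 50 bp, 26.5% within 500 bp, 23.2% by interval overlap, 33.2% in the stronger 50% of peaks, and 17.5% to 28.9% with 1 list in place of the pooled one. With a replicate left out there were 2197 to 3699 distal peaks with median signals of 7.95 to 10.8, on each list's own scale. With 5000 bp, tandem gaps held 53.9% and convergent gaps 16.9%. Without pseudogenes the non-coding odds ratio was 1.1 (adjusted p = 0.318, Fisher's exact test). Beside tRNA genes it was 0.83 at 0 bp and 0.878 to 1.13 with a replicate left out. Without multicopy peaks the strongest 10% differed in non-coding share, with an odds ratio of 1.32 (adjusted p = 0.0484, Fisher's exact test). TAATTA odds were 1.15 (right) in windows of 25 bp, 1.1 (left) and 1.02 (right) with flanks at 1000 bp, 1.24 (left) and 1.11 (right) in the stronger 50%, and 0.948 to 1.06 (left) and 1.01 to 1.05 (right) with a replicate left out, none past the threshold. Windows of 100 bp gave 93 words more and 36 less frequent in the strongest 10%. With a replicate left out there were 12 to 13 more, of which 4 to 6 were shared with the pooled list, and 5 to 7 less.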

Other observations

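For 3 of the 106 distal peaks of the pooled top 1000, the nearest matching summit ranked outside the top 5000 in both replicate lists. Whether a stronger summit also lay within 200 bp was not tested. They were chosen after their values were seen. The peak upstream of lin-22 had pooled rank 469, against 14987 in replicate 1 and 23596 in replicate 2. The peak between W06H8.6 and K08B12.3 had a pooled signal of 33.7 at rank 533, against 8.83 at rank 6767 in replicate 1 and 8.89 at rank 24982 in replicate 2. A peak between gpb-1 and F44E5.4, in the same gap as the strongest distal peak, had 31.9 at rank 681, against 9.55 at rank 5101 in replicate 1 and 11.8 at rank 11410 in replicate 2. None of the 3 windows had a near-identical copy elsewhere in the genome.

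The distal peak beside lgc-26 and nhr-204 had a signal of 29.5 pooled and 26.4 in replicate 2, with no match in replicate 1, and its window occurred 13 times in the genome at near identity, itself included. The largest such number for any distal peak was 57. A pair of neighbouring peaks lay between gei-8, a nuclear receptor co-repressor gene, and rpl-21, a ribosomal protein gene. They had pooled signals of 39 and 38.6, and only the first had a match in replicate 1. Of all distal peaks, 1331 (36%) had another distal summit within 1000 bp and 345 (9.34%) had one within 350 bp.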
